A study of Rattus norvegicus with 12 samples.

Results

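Branched-chain amino acid breakdown was followed through 10 genes, Bcat2, Bckdha, Bckdhb, Bckdk, Dbt, Ivd, Pcca, Pccb, Hibch and Hibadh, which were chosen by symbol. All 10 were found among the 37246 genes listed in the expression table, of which 21239 had counts, and all 10 passed the filter on low counts in each comparison. Left atrial RNA of 12 male rats had been sequenced, with 3 libraries in each of 4 groups, and each library is taken as 1 rat. WKY rats (Wistar-Kyoto, the normotensive control strain) and SHRs (spontaneously hypertensive rats, an inbred strain that becomes hypertensive with age) were given saline at 7.5 ml/kg/day. The ARB group were SHRs given valsartan, an angiotensin receptor blocker, at 30 mg/kg/day, and the ARNI group were SHRs given sacubitril/valsartan, in which a neprilysin inhibitor is joined to valsartan, at 60 mg/kg/day. All rats were 14 weeks old when bought and were treated for 4 weeks. WKY and SHR are separate inbred strains, so that a difference between them covers strain as well as blood pressure.

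Leucine, isoleucine and valine are the branched-chain amino acids (BCAA). They are first transaminated, in heart and muscle mainly by the mitochondrial enzyme that Bcat2 encodes. The resulting ketoacids are then committed to oxidation by the branched-chain ketoacid dehydrogenase (BCKDH) complex, which is switched off when the kinase Bckdk phosphorylates it and switched on again by the phosphatase Ppm1k. Later steps are particular to 1 or more of the amino acids and end in acetyl-CoA or, through propionyl-CoA, in the citrate cycle. Low expression of these genes and accumulation of BCAA are known from the failing heart.

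The labels and the marker genes limit what the groups stand for. For the 6 saline libraries, the strain words in the titles contradict the library names in brackets, and the libraries were grouped by those names; every direction between SHR and WKY given here would turn with the other reading. In the labels of the treated libraries, a WKY strain entry stands next to an SHR phenotype entry. Hba-a3, a globin gene, was at 6.73 to 13.1 CPM (a gene's count scaled to 1e6 counts in the library) in the 3 WKY libraries and at most 0.172 CPM in the other 9. Mettl24 was at 3.02 to 3.58 CPM in the 3 WKY libraries and at most 0.0688 CPM in the other 9. In both genes, the saline libraries named SHR were thus at the level of the treated SHRs. The tissue label is left atrium, yet the 8 atrial cardiomyocyte markers summed to 119 to 330.2 CPM in the WKY libraries and to 123.0 CPM in ARNI replicate 2, against 27833 to 77389 CPM in the other 8. Myl7, the atrial myosin light chain, was at 0.889 to 15.9 CPM in WKY and 9.67 CPM in ARNI replicate 2. Myl2, the ventricular myosin light chain, was at 3489 to 3776 CPM in WKY and at 2298, 2573 and 4161 CPM in SHR replicate 2, ARB replicate 3 and ARNI replicate 2, whereas the other 6 libraries of SHRs held 0.135 to 24.2 CPM. The 6 ventricular markers summed to 44175 to 44459 CPM in WKY, to 10734, 11479 and 19887 CPM in those 3 libraries and to 503 to 1197 CPM in the other 6. Chamber markers and strain therefore cannot be told apart between SHR and WKY. Not every marker followed its sum. Kcna5, counted as atrial, was at 7.13 to 14.1 CPM in WKY and lower in SHR, at most 5.6 CPM. Bmp10, also counted as atrial, was at 933 CPM in SHR replicate 1 but at 1.02 CPM in SHR replicate 3. Kcnip2, counted as ventricular, overlapped between WKY (864 to 1065 CPM) and SHR (88.6 to 901 CPM). Adipocyte markers (4 genes) summed to 346 CPM in ARB replicate 2 and 209 CPM in ARNI replicate 3 and to at most 14.1 CPM elsewhere. Total counts ranged from 11252361 to 15823525 per library.

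For 8 of the 10 genes every SHR library was below every WKY library, as for 15.9% of all genes tested. Dbt, which encodes the E2 transacylase core of the BCKDH complex, stood apart most. Dbt, Pcca and Hibadh were lower in SHR with an adjusted p of at most 0.05, and Dbt alone was also a differentially expressed gene (DEG: log2 fold change of 1 or more in size at an adjusted p of at most 0.05). All 10 log2 fold changes were below 0, from -1.55 for Dbt to -0.06 for Bckdk, the inhibitory kinase (0.06 with total counts in place of TMM scaling), with a median of -0.90 against 0.01 over all 13794 genes tested, of which 48.7% were below 0. In comparison, 3.35% of all genes tested were DEGs lower in SHR (5.54% were DEGs higher in SHR, 8.89% in both directions) and 8.26% were lower with an adjusted p of at most 0.05 (20.6% in both directions). In bulk RNA, fewer cells of a type and less RNA per cell cannot be told apart.

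**Figure D1:**
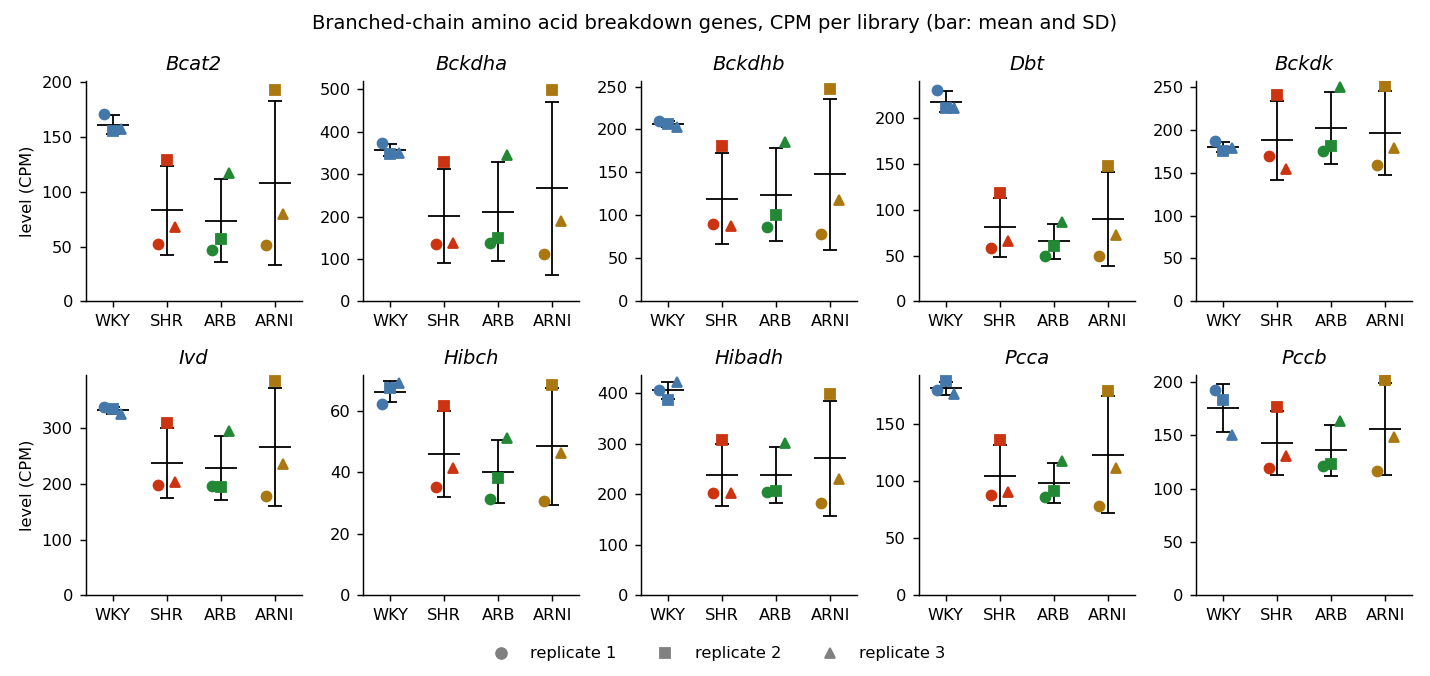
Level of each of the 10 genes in CPM (vertical axes, each from 0) in the 12 libraries by group; points are libraries, marked by replicate number, and bars give mean and SD (n = 3). WKY points lie close together, and in each SHR group 1 library (SHR replicate 2, ARB replicate 3, ARNI replicate 2) lies above the other 2; for Dbt all 9 lie below WKY.

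The first step is carried by Bcat2 (gene ID 64203), the mitochondrial branched-chain aminotransferase. Its level was 171, 155 and 158 CPM in WKY, 52.0, 129 and 67.7 CPM in SHR, 47.1, 56.7 and 117 CPM in ARB and 51.5, 193 and 79.6 CPM in ARNI (replicates 1 to 3 in each case). The SHR values were all below the WKY values, although SHR replicate 2 lay much nearer to them than the other 2 did, and ARNI replicate 2 exceeded every WKY library. The mean was 161 ± 8.37 CPM in WKY and 82.9 ± 40.8 CPM in SHR (SD, n = 3 each), and edgeR gave a log2 fold change of -1.08 (SE 0.35, adjusted p = 0.0695).

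The dehydrogenase component E1 of the BCKDH complex is built from the products of Bckdha (25244) and Bckdhb (29711). Bckdha stood at 374, 349 and 350.2 CPM in WKY, 136, 328 and 137 CPM in SHR, 137, 150.4 and 346 CPM in ARB and 112, 498 and 189.5 CPM in ARNI. Bckdhb stood at 209, 206 and 203 CPM in WKY, 89.8, 181 and 87.7 CPM in SHR, 86.4, 99.9 and 186 CPM in ARB and 78.7, 247 and 117 CPM in ARNI. Both had 1 library per SHR group near or above the WKY range and 2 far below it. Neither passed the test between SHR and WKY (Bckdha -0.94, SE 0.38, adjusted p = 0.119; Bckdhb -0.90, SE 0.32, adjusted p = 0.0849, edgeR).

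The transacylase Dbt (29611) was the 1 gene of the 10 for which all 9 libraries of SHRs lay below all WKY libraries, a pattern that 6.81% of all genes tested showed. Its level was 231, 212 and 211 CPM in WKY, 58.4, 118 and 66.3 CPM in SHR, 49.6, 60.5 and 86.8 CPM in ARB and 49.0, 147 and 72.7 CPM in ARNI. ARNI replicate 2, which was within or above the WKY range for the other 9 genes, had only 147 CPM. The mean was 218 ± 11.3 CPM in WKY and 80.9 ± 32.4 CPM in SHR (SD, n = 3 each), and the log2 fold change was -1.55 (SE 0.30, edgeR adjusted p = 0.0190). The call was lost when any of the 3 WKY libraries or SHR replicate 1 was left out (adjusted p from 0.0579 to 0.0744, log2 fold change from -1.57 to -1.35), and without SHR replicate 2 the value was -1.98 (adjusted p = 7.46e-05).

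The kinase Bckdk (29603) did not follow the others. It was at 187, 175 and 178 CPM in WKY, 170.0, 240.4 and 154 CPM in SHR, 175, 181 and 249.8 CPM in ARB and 159, 251 and 178 CPM in ARNI. The groups overlapped, and the highest libraries were again SHR replicate 2, ARB replicate 3 and ARNI replicate 2, here above every WKY library. Between SHR and WKY the log2 fold change was -0.06 (SE 0.21, edgeR adjusted p = 0.851), and with total counts in place of TMM scaling it was 0.06, the median of all genes then being 0.15.

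Because the complex and its kinase had different patterns, their promoters are shown as the 250 bases before the annotated start, from RefSeq on build GRCr8, which is not the build of the deposited counts. Capitals mark the GC box, written GGGCGG on the plus strand and CCGCCC when it lies on the other. The Dbt sequence is chr2:207166410-207166659 and the Bckdk sequence chr1:191945559-191945808, both on the plus strand.
Dbt: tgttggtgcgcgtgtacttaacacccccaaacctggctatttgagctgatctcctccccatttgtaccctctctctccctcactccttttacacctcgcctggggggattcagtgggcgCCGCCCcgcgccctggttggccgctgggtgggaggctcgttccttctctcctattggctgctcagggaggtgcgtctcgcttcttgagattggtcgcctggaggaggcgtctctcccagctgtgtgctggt
Bckdk: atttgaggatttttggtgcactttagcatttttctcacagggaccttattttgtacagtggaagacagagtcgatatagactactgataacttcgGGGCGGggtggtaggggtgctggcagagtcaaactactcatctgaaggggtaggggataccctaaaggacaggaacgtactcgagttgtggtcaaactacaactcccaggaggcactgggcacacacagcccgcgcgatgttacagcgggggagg
Each holds 1 GC box, starting 131 bases before the start in Dbt and 155 bases before it in Bckdk, and their GC content is 60.8% and 51.2%. Promoters of 9 of the 10 genes were in the table, all but Bckdha, and 7 of the 9 held a GC box on either strand, as did 30.5% of all 33469 promoters. CCAAT was found on either strand in 5 of 9 (34.0% of all), and TATAAA and AAGGTCA, a site of estrogen-related receptors, in 0 of 9 (12.9% and 3.99% of all). A match is a description of these letters only.

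Ivd (24513) encodes isovaleryl-CoA dehydrogenase of the leucine branch. It was at 338, 334 and 326 CPM in WKY, 199, 310.1 and 204 CPM in SHR, 197, 195 and 295 CPM in ARB and 178, 385 and 237 CPM in ARNI. Each SHR value was below each WKY value, with SHR replicate 2 only slightly so. The fold change did not pass the test (log2 -0.61, SE 0.22, edgeR adjusted p = 0.0862).

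The valine branch runs through Hibch (301384), the hydrolase that frees hydroxyisobutyrate from CoA, and Hibadh (63938), the dehydrogenase that follows it. Hibch was at 62.5, 67.5 and 69.1 CPM in WKY, 35.1, 61.8 and 41.3 CPM in SHR, 31.3, 38.0 and 51.4 CPM in ARB and 30.8, 68.5 and 46.3 CPM in ARNI. Hibadh was at 408, 388 and 423 CPM in WKY, 203, 309 and 202 CPM in SHR, 205, 206 and 301 CPM in ARB and 184, 399 and 231 CPM in ARNI. For both genes the SHR values lay below the WKY values without overlap, for Hibch by a narrow margin. Hibadh fell from 406 ± 17.5 to 238 ± 61.1 CPM (SD, n = 3 each; log2 -0.89, SE 0.22, edgeR adjusted p = 0.0344), whereas Hibch did not pass the test (-0.65, SE 0.23, adjusted p = 0.0883).

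Isoleucine and valine meet at propionyl-CoA, which the carboxylase encoded by Pcca (687008) and Pccb (24624) passes on. Pcca was at 179.9, 187 and 177 CPM in WKY, 88.1, 136 and 90.4 CPM in SHR, 86.0, 91.1 and 118 CPM in ARB and 78.4, 179 and 112 CPM in ARNI. Pccb was at 193, 183 and 149.9 CPM in WKY, 119.7, 177 and 131 CPM in SHR, 121, 123.3 and 163 CPM in ARB and 117, 202 and 149 CPM in ARNI. The subunits differed in that Pccb overlapped between WKY and SHR, through WKY replicate 3 and SHR replicate 2, and Pcca did not. Pcca fell from 181 ± 5.52 to 105 ± 27.1 CPM (SD, n = 3 each; log2 -0.91, SE 0.21, edgeR adjusted p = 0.0300), and Pccb gave -0.42 (SE 0.20, adjusted p = 0.159).

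Over the 10 genes, 8 had all SHR values below all WKY values, against 15.9% of all genes tested, and 2, Bckdk and Pccb, overlapped. The unadjusted p was under 0.05 for 8 of the 10, against 39.4% of all genes. The count of 3 with an adjusted p of at most 0.05 depended on single libraries. It was 0 without WKY replicate 1, WKY replicate 2, WKY replicate 3 or SHR replicate 1, 1 (Dbt) without SHR replicate 3 and 9 (all but Bckdk) without SHR replicate 2, the SHR library with ventricular markers. All 10 values were below 0 in every such fit except Bckdk without SHR replicate 1 (0.012) or replicate 3 (0.10). DEGs numbered 6 without SHR replicate 2, when Dbt (-1.98), Bcat2 (-1.61), Bckdha (-1.56), Bckdhb (-1.38), Pcca (-1.19) and Hibadh (-1.17) passed and the median of the 10 was -1.18; 5310 of all genes (37.8%; 18.6% lower) then had an adjusted p of at most 0.05, against 2837 with all libraries. DESeq2 gave 8 of 10 genes with an adjusted p of at most 0.05, against 23.9% of the 15401 genes to which it gave an adjusted p (11.8% lower), and a joint edgeR fit of all 12 libraries gave 0.

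**Figure D2:**
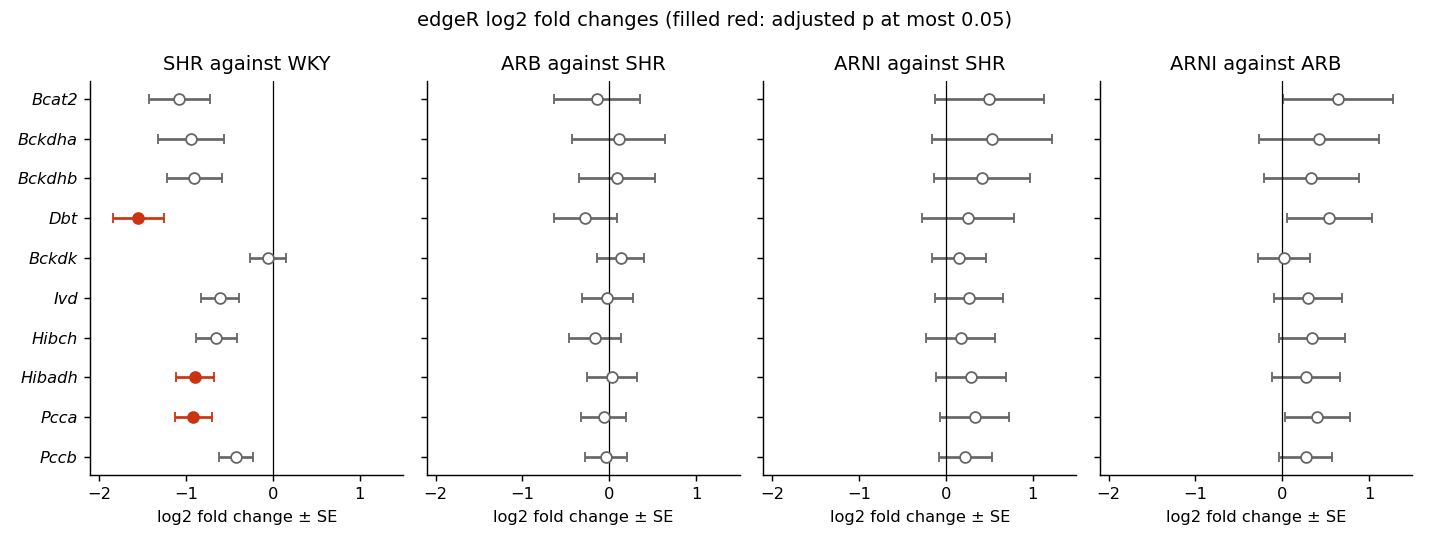
edgeR log2 fold changes with SE (horizontal axes) of the 10 genes in 4 comparisons, 3 libraries per group; filled red points have an adjusted p of at most 0.05. Dbt, Pcca and Hibadh are red between SHR and WKY, and no gene is red in the comparisons with treated groups.

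Within the 9 libraries of SHRs, the genes split along the ventricular marker Myl2. SHR replicate 2, ARB replicate 3 and ARNI replicate 2 were above the other 6 libraries for all 10 genes, a pattern shown by 9.71% of all genes tested. Bckdha ranged from 328 to 498 CPM in these 3 libraries and from 112 to 189.5 CPM in the other 6. Bckdk ranged from 240.4 to 251 CPM and from 154 to 181 CPM. Dbt ranged from 86.8 to 147 CPM and from 49.0 to 72.7 CPM. Set against the WKY range, SHR replicates 1 and 3, ARB replicate 1 and ARNI replicate 1 were below it for all 10 genes, ARB replicate 2 and ARNI replicate 3 for 9. SHR replicate 2 and ARB replicate 3 were below it for 8, with Bckdk above it and Pccb within it, and ARNI replicate 2 was below it for Dbt, within it for 3 and above it for 6. ARNI contained both extremes, since replicate 2 was the highest of the 12 libraries for 6 genes and replicate 1 the lowest for 8.

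The chamber markers moved with these levels. A marker score was taken as the mean log2(CPM + 1) of the 8 atrial markers minus that of the 6 ventricular ones. It was -7.33 to -7.16 in WKY, -6.51 in ARNI replicate 2, 0.26 and 0.44 in SHR replicate 2 and ARB replicate 3, and 4.24 to 6.29 in the other 6 libraries. The mean of the 10 genes on the log2(CPM + 1) scale, centred per gene over the 12 libraries, was 0.50 to 0.57 in WKY, 0.66 in ARNI replicate 2, 0.32 and 0.21 in SHR replicate 2 and ARB replicate 3, and -0.66 to -0.18 in the other 6. The 4 libraries with the lowest scores thus had the highest levels, and the 6 with the highest scores had the lowest. With the score as a covariate in the joint fit, Dbt had a log2 fold change of -0.02 between SHR and WKY (edgeR adjusted p = 0.965), the other 9 genes were above 0 and none passed; the scores of these groups lie apart, so this value extrapolates. The part of chamber content in the difference was not tested apart from strain, which cannot be told apart from it here.

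**Figure D3:**
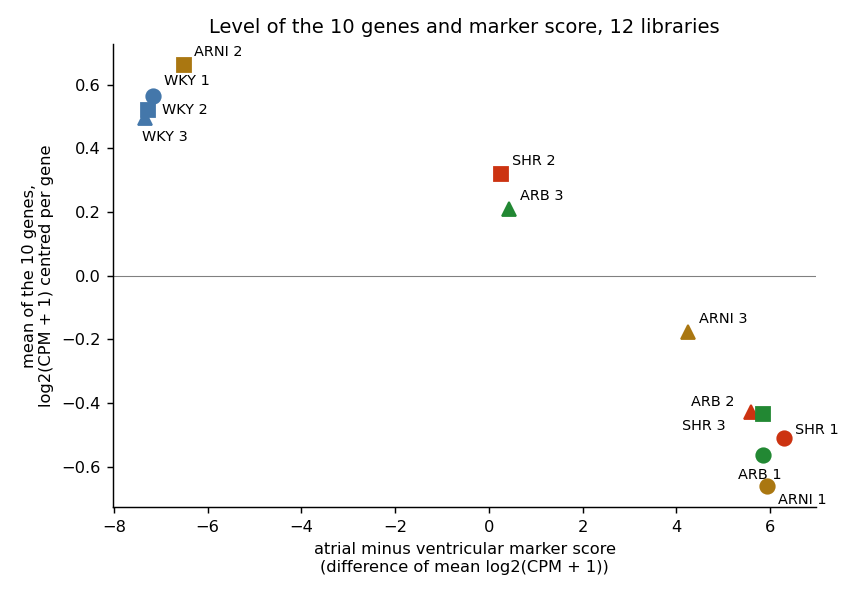
Mean level of the 10 genes (vertical axis, log2(CPM + 1) centred per gene) against the atrial minus ventricular marker score (horizontal axis, difference of mean log2(CPM + 1)), 1 point per library. The 3 WKY libraries and ARNI replicate 2 lie at scores of -7.33 to -6.51 with levels of 0.50 to 0.66, SHR replicate 2 and ARB replicate 3 lie between, and the other 6 lie at 4.24 to 6.29 with levels of -0.66 to -0.18.

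The ratio of 2 genes' counts within a library does not depend on its total, and it can be compared between libraries. The ratios were chosen after the values had been seen and carry no test. Some did not separate WKY from SHR. Bckdhb to Bckdha was 0.560 to 0.591 in WKY and 0.550 to 0.659 in SHR. Hibch to Hibadh (0.153 to 0.174 and 0.173 to 0.204) and Bcat2 to Bckdha (0.446 to 0.457 and 0.382 to 0.494) overlapped as well. Dbt to Dld, the E3 subunit gene of BCKDH, was 0.434 to 0.514 in WKY and 0.235 to 0.418 in all 9 libraries of SHRs. Bckdk to Bckdha, kinase to its target, was 0.50, 0.503 and 0.510 in WKY, 1.25, 0.733 and 1.12 in SHR, 1.28, 1.21 and 0.722 in ARB and 1.42, 0.505 and 0.941 in ARNI. ARNI replicate 2 thus had the WKY ratio, and the other 8 libraries of SHRs were higher. Dbt to Bckdha, both in the complex, was 0.618, 0.607 and 0.603 in WKY, 0.428, 0.360 and 0.484 in SHR, 0.362, 0.403 and 0.251 in ARB and 0.439, 0.296 and 0.384 in ARNI. Here all 9 libraries of SHRs were below WKY, and the 3 with ventricular markers were the lowest of their groups. Pcca to Pccb was 0.934, 1.02 and 1.18 in WKY, and it was 0.690 to 0.771 in SHR, 0.710 to 0.739 in ARB and 0.672 to 0.887 in ARNI, again below WKY in all 9.

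Kinase and phosphatase set the activity of BCKDH against each other, and the ratio of Bckdk to Ppm1k was 1.08, 1.10 and 0.987 in WKY. It was 1.63, 1.5 and 1.33 in SHR, 2.2, 1.93 and 2.33 in ARB and 1.78, 1.36 and 1.63 in ARNI. All 9 libraries of SHRs were above WKY, and the ARB libraries (2.15 ± 0.207, SD, n = 3) were above the SHR libraries (1.49 ± 0.154) and the ARNI libraries (1.59 ± 0.215) without overlap. Ppm1k itself was at 173, 159 and 181 CPM in WKY, 104, 160.3 and 116 CPM in SHR, 79.4, 94.1 and 107 CPM in ARB and 88.9, 185 and 109 CPM in ARNI. Its log2 fold change between SHR and WKY was -0.56 (SE 0.20, edgeR adjusted p = 0.0881). Between ARB and SHR it was -0.41 (SE 0.24, edgeR unadjusted p = 0.126), and neither passed the threshold. Bckdk gave 0.13 between ARB and SHR (SE 0.27, edgeR unadjusted p = 0.644). The ratio of the 2 genes was chosen after the values had been seen, and its order among the groups was not tested.

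**Figure D4:**
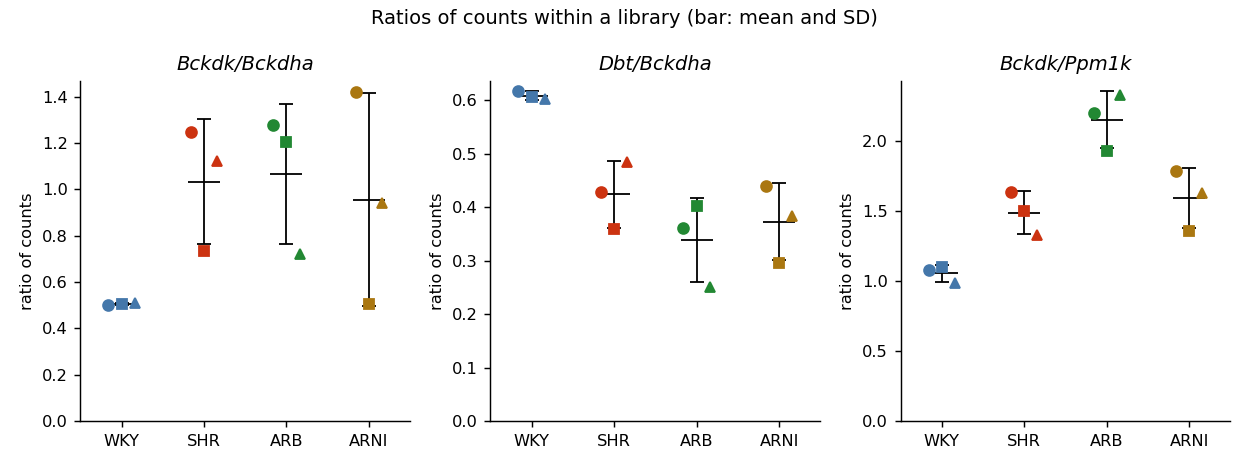
Ratios of counts within a library (vertical axes, no unit, from 0) by group; points are the 12 libraries and bars give mean and SD (n = 3). Bckdk to Bckdha is close to 0.5 in WKY and in ARNI replicate 2, Dbt to Bckdha is lower in all 9 libraries of SHRs than in WKY, and Bckdk to Ppm1k is highest in ARB.

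The treated groups were compared with untreated SHRs, and with each other, to ask whether either drug moved these genes. No difference passed the test. ARB, ARNI and SHR values overlapped for all 10 genes. Their group means ran WKY, ARNI, SHR, ARB from high to low for 7 genes (Bcat2, Dbt, Ivd, Pcca, Pccb, Hibch and Hibadh) and WKY, ARNI, ARB, SHR for Bckdha and Bckdhb, while Bckdk ran ARB, ARNI, SHR, WKY. The order of the 3 SHR groups is within their spread in each case. These comparisons share the SHR or ARB libraries.

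Between ARB and SHR, edgeR called 0 of 13979 genes (0%), and 225 (1.61%) had an unadjusted p under 0.05. None of the 10 genes was among these. Their log2 fold changes had a median of -0.03 and ran from -0.28 for Dbt (SE 0.36) to 0.13 for Bckdk (SE 0.27), each with an adjusted p of 1.0. Dbt was 80.9 ± 32.4 CPM in SHR and 65.6 ± 19.1 CPM in ARB (SD, n = 3 each). Leaving out the Myl2-rich libraries, 1 in each group, gave a median of 0.0046. DESeq2 called 3 genes, none of them of the 10.

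Between ARNI and SHR, edgeR called 0 of 13955 genes (0%), and 227 (1.63%) had an unadjusted p under 0.05, none of the 10. All 10 log2 fold changes were above 0 (49.3% of all genes tested were below 0), with a median of 0.28, from 0.15 for Bckdk (SE 0.31) to 0.53 for Bckdha (SE 0.69), each with an adjusted p of 0.999. The median was -0.23 without ARNI replicate 2, a fit that kept the Myl2-rich SHR replicate 2. Without the Myl2-rich library of both groups the median was 0.12. Bckdha was 200.5 ± 111 CPM in SHR and 266 ± 204 CPM in ARNI (SD, n = 3 each), and the SDs exceeded the difference of the means.

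Between ARNI and ARB, edgeR called 0 of 13948 genes (0%), and 539 (3.86%) had an unadjusted p under 0.05, none of the 10. All 10 values were above 0 (46.8% of all genes tested were below 0), with a median of 0.34, from 0.03 for Bckdk (SE 0.30, adjusted p = 0.998) to 0.65 for Bcat2 (SE 0.63, adjusted p = 0.993), and Bckdk turned to -0.043 with total counts. The median of the 10 was -0.19 without ARNI replicate 2 and 0.11 without the Myl2-rich library of both groups. Bcat2 was 73.5 ± 37.8 CPM in ARB and 108 ± 75.0 CPM in ARNI (SD, n = 3 each). DESeq2 called 7 genes between ARNI and SHR and 18 between ARNI and ARB, none of them of the 10.

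The other genes of BCAA breakdown, transport and control were examined as a list of 22. Between SHR and WKY, 7 were lower and 3 higher with an adjusted p of at most 0.05, against 8.26% and 12.3% of all genes, and the median of the 22 was -0.68. The counts were 0 without any 1 of the WKY libraries, 1 without SHR replicate 1 and 5 without SHR replicate 3. Without SHR replicate 2 the count was 20, against 37.8% of all genes. In 13 all SHR values were below WKY (15.9% of all genes) and in 3 above (33.7% of all genes), and 6 overlapped.

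Among enzymes, Dld, the E3 subunit that BCKDH shares with pyruvate dehydrogenase, was a DEG (-1.05, SE 0.25, edgeR adjusted p = 0.0316). It was at 449, 451 and 486 CPM in WKY, 205, 329 and 197 CPM in SHR, 171, 233 and 274 CPM in ARB and 209, 352 and 258 CPM in ARNI. Like Dbt, it was below WKY in all 9 libraries of SHRs, as were 6 of the 22 genes of the list, Dld included, and 6.81% of all genes tested. Auh (-0.78, SE 0.16, adjusted p = 0.0237) of the leucine branch, Acadsb (-0.55, SE 0.14, adjusted p = 0.0353) of the isoleucine branch and Oxct1 (-0.97, SE 0.27, adjusted p = 0.0482), which activates ketone bodies, were also lower. So were the genes that follow Pcca and Pccb: Mmut, the methylmalonyl-CoA mutase (-0.77, SE 0.21, adjusted p = 0.0436), and Mmaa (-0.86, SE 0.19, adjusted p = 0.0267) and Mmab (-0.62, SE 0.17, adjusted p = 0.0470), which supply its cobalamin cofactor.

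The 3 of the 22 genes that were higher with an adjusted p of at most 0.05, beside 12.3% of all genes, encode carriers. Slc7a5 and Slc3a2 encode the light and heavy chains of a plasma membrane transporter of large neutral amino acids, and Slc25a44 encodes a mitochondrial carrier of BCAA. Slc7a5, the other DEG of the list, was at 8.01, 5.91 and 6.93 CPM in WKY, 23.3, 21.1 and 11.6 CPM in SHR, 33.3, 32.9 and 24.3 CPM in ARB and 28.2, 6.21 and 22.5 CPM in ARNI (SHR against WKY 1.30, SE 0.31, edgeR adjusted p = 0.0323). ARNI replicate 2 was again at the WKY level. Slc3a2 was at 69.2, 62.5 and 60.7 CPM in WKY and 117, 98.6 and 108 CPM in SHR (0.61, SE 0.10, adjusted p = 0.0121), and Slc25a44 was at 20.05 to 23.2 CPM and 31.8 to 32.2 CPM (0.41, SE 0.10, adjusted p = 0.0307). Slc3a2 and Slc25a44 were above WKY in all 9 libraries of SHRs, as were 10.1% of all genes.

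Among regulators, Klf15, a transcription factor known to drive BCAA breakdown genes, gave -0.58 (SE 0.17, edgeR adjusted p = 0.0513). Bcat1, the cytosolic aminotransferase, gave -0.27 (SE 0.39, adjusted p = 0.631) and was at 2.44 to 8.39 CPM in 11 libraries and 45.0 CPM in ARNI replicate 3. That library also had the highest summed smooth muscle (682 CPM) and neuron and Schwann cell markers (250 CPM) and the highest Ucp1 (182 CPM). ARB replicate 2 had 8.39 CPM of Bcat1. Its summed adipocyte markers were higher than in ARNI replicate 3 (346 against 209 CPM), but the adipocyte marker Plin1 was lower (68.9 against 99.5 CPM). The source of the Bcat1 counts was not tested. Between treated and untreated SHRs, and between the drugs, edgeR and DESeq2 called 0 of the 22 genes. By edgeR 1 of them had an unadjusted p under 0.05, Slc7a5, with 0.70 between ARB and SHR (SE 0.29, unadjusted p = 0.0484, adjusted p = 1.0).

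**Figure D5:**
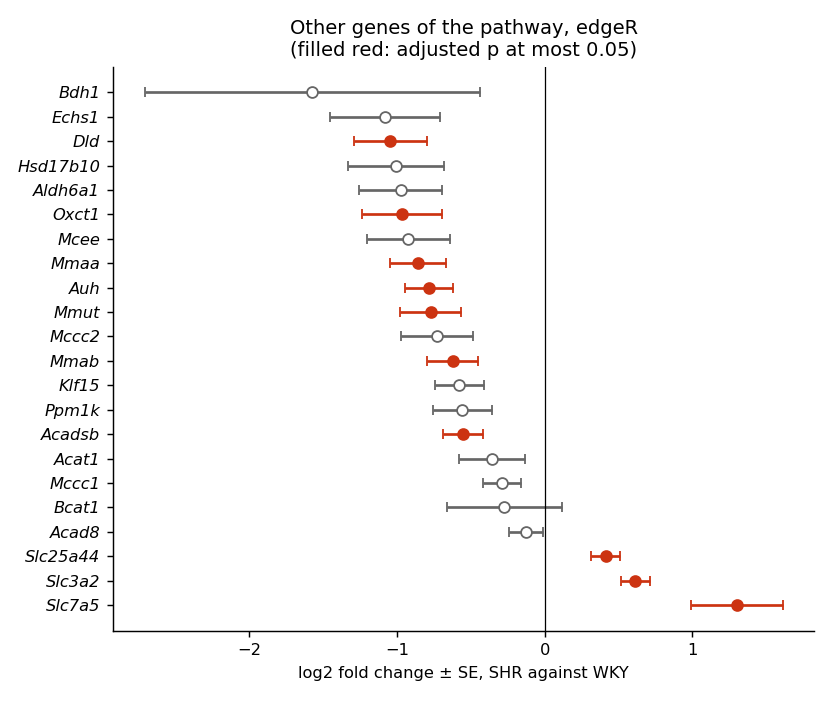
edgeR log2 fold change with SE (horizontal axis), SHR against WKY, of the 22 other genes of BCAA breakdown, transport and control (3 libraries per group); filled red points have an adjusted p of at most 0.05. The 7 red points below 0 are enzymes or cofactor genes, and the 3 above 0 are Slc7a5, Slc3a2 and Slc25a44.

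Fatty acid oxidation and the citrate cycle, the mitochondrial pathways beside BCAA breakdown, had medians below 0 as well. Of 17 fatty acid oxidation genes, 2 were lower with an adjusted p of at most 0.05 between SHR and WKY (8.26% of all genes), 15 had all SHR values below WKY (15.9% of all genes), and their median log2 fold change was -1.14. Of 13 citrate cycle genes, 3 were lower with an adjusted p of at most 0.05, 11 had all SHR values below WKY, and the median was -0.82. The counts with an adjusted p of at most 0.05 were 0 in both lists without any 1 of the WKY libraries or SHR replicate 1. They were 1 and 0 without SHR replicate 3, and 17 and 13 without SHR replicate 2 (37.8% of all genes, 18.6% lower). The medians in that last fit were -1.80 and -1.17. DESeq2 gave 13 and 10, against 23.9% of all genes to which it gave an adjusted p. With all libraries, the median of -0.90 for the 10 BCAA genes lay between those of these pathways, and the differences among the medians were not tested.

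Outside all lists, the genes whose pattern over the 12 libraries was nearest to the mean of the 10 were sought among 9217 genes with a mean of at least 10 CPM, by the root mean square difference of centred log2(CPM + 1). The nearest were Coq9 (0.06) and Timm44 (0.06), followed by Lynx1, Atp5f1a, Kyat3, Gatb, Slc25a11, Coq5, Tmem120a and Tufm (0.07 to 0.09). Coq9 was at 464, 455 and 490.5 CPM in WKY, 235, 411 and 242 CPM in SHR, 233, 258 and 407 CPM in ARB and 221, 532 and 319 CPM in ARNI. Of the 10 genes themselves, Hibadh was nearest to their mean (0.09), and Bckdk (0.39) and Dbt (0.38) were farthest. The points share libraries, and so differ together in depth, composition and chamber markers.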

How the data were processed

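Per the labels and the study's methods, single-end reads of 50 bases (BGISEQ-500) were filtered with SOAPnuke and aligned with HISAT2 (2.0.4) and Bowtie2 (2.2.5), and the build is Rnor_6.0 by the submitters' processing notes. The authors deposited expected counts from RSEM, without normalization, in which a read matching several genes is shared (23.6% of values were not whole within 0.001). The deposited table also holds a log2 fold change and a p-value of the authors' comparison, which were not used. Expected counts were rounded. CPM used plain total counts. Pairs of groups were compared on their 6 libraries with edgeR 4.0.16 (R 4.3.3; filterByExpr, TMM, quasi-likelihood test, two-sided), p-values were adjusted by Benjamini-Hochberg over all genes tested, and SEs were derived from the F statistic. DESeq2 1.42.0, RLE factors, no TMM, no filter, a 12-library fit, a replicate block, each library left out, and, added after the data were seen, fits without libraries of SHRs with Myl2 over 1000 CPM or with Adipoq over 50 CPM and a marker score covariate were alternatives. The edgeR and DESeq2 steps were tested on simulated data. Levels, ratios and plots were computed in Python 3.11.15 (numpy 2.4.6, pandas 2.3.3, matplotlib 3.10.9).

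The 10 genes, the lists, the tests and the markers were chosen with earlier results of these data known. Named were the 10 genes, list genes with an adjusted p of at most 0.05 between SHR and WKY, Ppm1k, Klf15 and Bcat1, the 10 nearest genes, and markers near 0 in a group; a gene of the list is not reported here; RefSeq names and identifiers matched for 10 of 10. Replicates differed by more than sampling noise in every group. The labels do not say more of their origin, so p-values measure only the spread between these samples. Deviations of same-numbered samples were correlated in each of the 3 pairs between ARNI and SHR (r = 0.604, 0.596 and 0.244), and not in each pair elsewhere. The Myl2-rich library was replicate 2 in both SHR and ARNI but replicate 3 in ARB. Pairing by number and chamber markers therefore cannot be told apart between ARNI and SHR. The replicate block between ARNI and SHR gave a median of 0.21 and no called gene. At a count of 3, the limit for a count of 0, the level was 0.190 to 0.267 CPM, which covers counting error only.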

Additional observations from a re-analysis of the deposited data

How the results depend on the processing

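Between SHR and WKY, DESeq2 gave 2 DEGs among the 10 genes and 8 with an adjusted p of at most 0.05 (1 and 3 by edgeR; 1601 and 3674 of all genes by DESeq2, 1226 and 2837 by edgeR), the 12-library fit 0 and 0 (579 and 1178 of all genes), and the replicate block 1 with an adjusted p of at most 0.05 (681 and 1030 of all genes; the numbers do not pair these groups). Without the Myl2-high libraries of SHRs they were 6 and 9 (2205 and 5310 of all genes). In this comparison that is the same fit as leaving out SHR replicate 2. With the marker score they were 0 and 0 (100 and 127), the median of the 10 being 0.54. Leaving out 1 library gave 0 to 6 and 0 to 9, 348 to 2205 and 415 to 5310 of all genes, and a median of -1.18 to -0.69. With the score, values turned to 0.84 (Bcat2), 1.14 (Bckdha), 0.78 (Bckdhb), 0.84 (Bckdk), 0.57 (Ivd), 0.23 (Pcca), 0.47 (Pccb), 0.52 (Hibch), 0.29 (Hibadh), 0.030 (Auh), 0.53 (Klf15), 0.20 (Mmab), 0.048 (Mmut), 0.25 (Oxct1) and 0.51 (Ppm1k). Without TMM, 2560 genes were higher and 867 lower with an adjusted p of at most 0.05 (1698 and 1139 with it). Bckdk was 0.061 with total counts and -0.32 to 0.10 with 1 library left out. The causes were not tested.

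DESeq2 called 3 genes between ARB and SHR by either rule, 7 DEGs and 9 with an adjusted p of at most 0.05 between ARNI and SHR, and 18 and 23 between ARNI and ARB; with the score edgeR called 1 by either rule in the last 2. With 1 library left out, the median of the 10 ran from -0.35 to 0.29 (ARB against SHR), from -0.23 to 0.59 (ARNI against SHR) and from -0.19 to 0.63 (ARNI against ARB). For ARB against SHR, Dbt ran from -0.59 to 0.16 and Bckdk from -0.10 to 0.40. For ARNI against SHR, Bckdk ran from -0.16 to 0.41 (-0.10 with the score) and Bckdha from -0.43 to 1.14 (-0.21). For ARNI against ARB, Bckdk ran from -0.29 to 0.26 (-0.043 with total counts, -0.062 without the Myl2-high libraries, -0.24 with the score) and Bcat2 from -0.21 to 1.22 (-0.020 with the score). The replicate block changed no call in the treated comparisons. With 3 rats per group and SEs of 0.24 to 0.69 for the genes named in the treated comparisons, small differences were not detectable.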
